A study of Homo sapiens with 15 samples.

Results

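The cluster of miR-424, miR-503, miR-542, miR-450a and miR-450b is a group of miRNA hairpins on the human X chromosome, and its mature arms were followed through 15 small RNA libraries of HEK293 derivatives. Members were all listed mature arms whose names begin with miR-424, miR-503, miR-542, miR-450a or miR-450b. There were 10 members among 2424 miRNAs listed in either of 2 count tables. All 10 were in the knockdown table (of 2418 miRNAs) and 9 in the precipitation table (of 2189), where miR-450a-2-3p was not listed.

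The libraries came from FTO1C1, FTO2D4 and FTO3C3, which are clonal derivatives of HEK293, a human embryonic kidney line, and in the knockdown experiments they were uninduced. Each of the 5 groups held 1 library per cell line. Cells were transfected with 10 nM of scrambled siRNA or of siRNA against FTO, a demethylase of N6-methyladenosine (m6A), and harvested after 48 h. For the cells of the other groups no siRNA is named, and their induction is not stated. Their small RNA was precipitated with an antibody against m6A (m6A), with unspecific IgG (IgG), or kept unprecipitated (input). All 3 lines are clones of 1 parental line, so the spread given here is between clones. FTO mRNA cannot be read in these libraries, and the knockdown itself was not checked here.

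Mature miRNAs are cut from hairpin transcripts, and either arm (5p or 3p) can be kept in an Argonaute protein, which then pairs mainly through the seed, bases 2 to 8, with target mRNAs. One arm usually dominates, and the other is known as the passenger. miR-424 (miR-322 in rodents) and miR-503 belong to the extended miR-15/16 family, known to repress cell cycle regulators such as cyclins and CDC25A, and miR-542-3p is known to repress survivin. miR-450a and miR-450b are related in sequence.

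The hairpins lie on the minus strand within chrX:134540185-134546711 (GRCh38.p14), a span of 6527 bases. In the order of transcription they are MIR424, MIR503, MIR542, MIR450A2, MIR450A1 and MIR450B. MIR424 and MIR503 are 215 bases apart, and MIR503 and MIR542 are 4890 bases apart. The annotated long non-coding RNA MIR503HG, at chrX:134543377-134546630, covers all 71 bases of the MIR503 hairpin, 17 of the 98 bases of MIR424 and none of the other hairpins. The RefSeq table gave a mature sequence for 9 of the 10 members, all but miR-542-3p. Of these, the arms called in a precipitation comparison and their relatives or partner arms follow 5′ to 3′ with the seed in capitals. miR-16-5p, which is not a member, is added because it has the seed of miR-424-5p.
hsa-miR-424-5p: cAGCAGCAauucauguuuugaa
hsa-miR-16-5p: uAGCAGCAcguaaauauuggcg
hsa-miR-503-5p: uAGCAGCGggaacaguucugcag
hsa-miR-503-3p: gGGGUAUUguuuccgcugccagg
hsa-miR-424-3p: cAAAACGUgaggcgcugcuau
hsa-miR-450a-5p: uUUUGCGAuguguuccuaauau
hsa-miR-450b-5p: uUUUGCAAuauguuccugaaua

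Seeds were compared over the 2127 of 2424 listed miRNAs with a RefSeq sequence, which leaves out miR-542-3p. Of these, 7 hold the seed of miR-424-5p, namely miR-15a-5p, miR-15b-5p, miR-16-5p, miR-195-5p, miR-424-5p, miR-497-5p and miR-6838-5p. The seed of miR-503-5p differs from it at 1 base and was held by no other miRNA compared. miR-450a-5p and miR-450b-5p differ at 6 of 22 positions counted from the 5′ end (G7A, G10A, A18G, U20A, A21U and U22A, with the base of miR-450a-5p first), of which 1 lies in the seed. The mature miR-450a-5p is the same from MIR450A1 and MIR450A2, so its reads cannot be assigned to either hairpin. The members differ in base composition. miR-503-3p holds 2 adenosines in 23 bases and is 60.9% G and C, whereas miR-450b-5p holds 6 adenosines in 22 bases and is 27.3% G and C. The median over 2127 listed miRNAs with a sequence was 5 adenosines. The letters AAC or GAC, on the miRNA strand alone, were searched in the 9 members other than miR-542-3p and found in 3, miR-424-3p, miR-503-5p and miR-450a-2-3p, against 37.4% of these 2127 miRNAs.

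Between 1991317 and 3876806 reads fell on miRNAs in the knockdown libraries, 1408702 to 1500357 in the inputs, 569501 to 4973238 in the m6A libraries and 186446 to 786688 in the IgG libraries. In such bulk libraries, fewer copies per cell and fewer cells holding a miRNA cannot be told apart. Values are given as reads per 1000000 miRNA reads of the library (RPM). miR-6080 alone took 58.0 to 71.6% of the IgG reads, 41.3 to 47.8% of the m6A reads and 15.5 to 28.4% of the input reads, so every RPM in these libraries leans on it. In the shallowest library, the IgG precipitate of FTO3C3, 3 reads make 16.1 RPM. miRNAs known from HEK293 cells (miR-10a-5p, miR-10b-5p, miR-92a-3p, miR-20a-5p and miR-196a-5p) together held 368979 to 467228 RPM in the scrambled siRNA libraries and 147255 to 235444 RPM in the inputs. The 5 blood cell miRNAs looked up held 72.6 to 100.4 RPM in the scrambled siRNA libraries and 440.1 to 878.3 RPM in the inputs, of which miR-223-3p made up most. The 3 muscle miRNAs held 18.7 to 26.4 RPM and the liver miRNA miR-122-5p 5.22 to 7.03 RPM in the scrambled siRNA libraries.

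In cells with scrambled siRNA, the cluster as a whole held 799 ± 73.9 RPM (mean ± SD, n = 3 here and below), and 2 arms made up most of it. miR-450b-5p counted 1097, 1028 and 496 reads in FTO1C1, FTO2D4 and FTO3C3 (302, 417 and 249 RPM), with a mean of 323 ± 86.0 RPM. miR-542-3p counted 823, 465 and 547 reads, with a mean of 230 ± 43.1 RPM. The ranges of these leading members overlapped, so their order is not set by these libraries. miR-424-5p followed at 96.1 ± 8.83 RPM (90.7, 106 and 91.4 RPM), below every library of both. miR-450a-5p (36.7 to 68.6 RPM, mean 49.3) and miR-424-3p (46.7 ± 1.85 RPM) overlapped with each other and lay below miR-424-5p in every line. miR-503-5p held 19.0, 19.9 and 21.1 RPM and miR-542-5p 14.0 ± 3.69 RPM. miR-450b-3p, miR-450a-2-3p and miR-503-3p were the lowest members, with means of 7.84, 6.72 and 6.26 RPM and counts between 10 and 22 reads. By the rule for expressed miRNAs, a level of 15 RPM or more in each scrambled siRNA library, 6 of the 10 members were expressed, against 42.7% of all listed miRNAs.

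**Figure D1:**
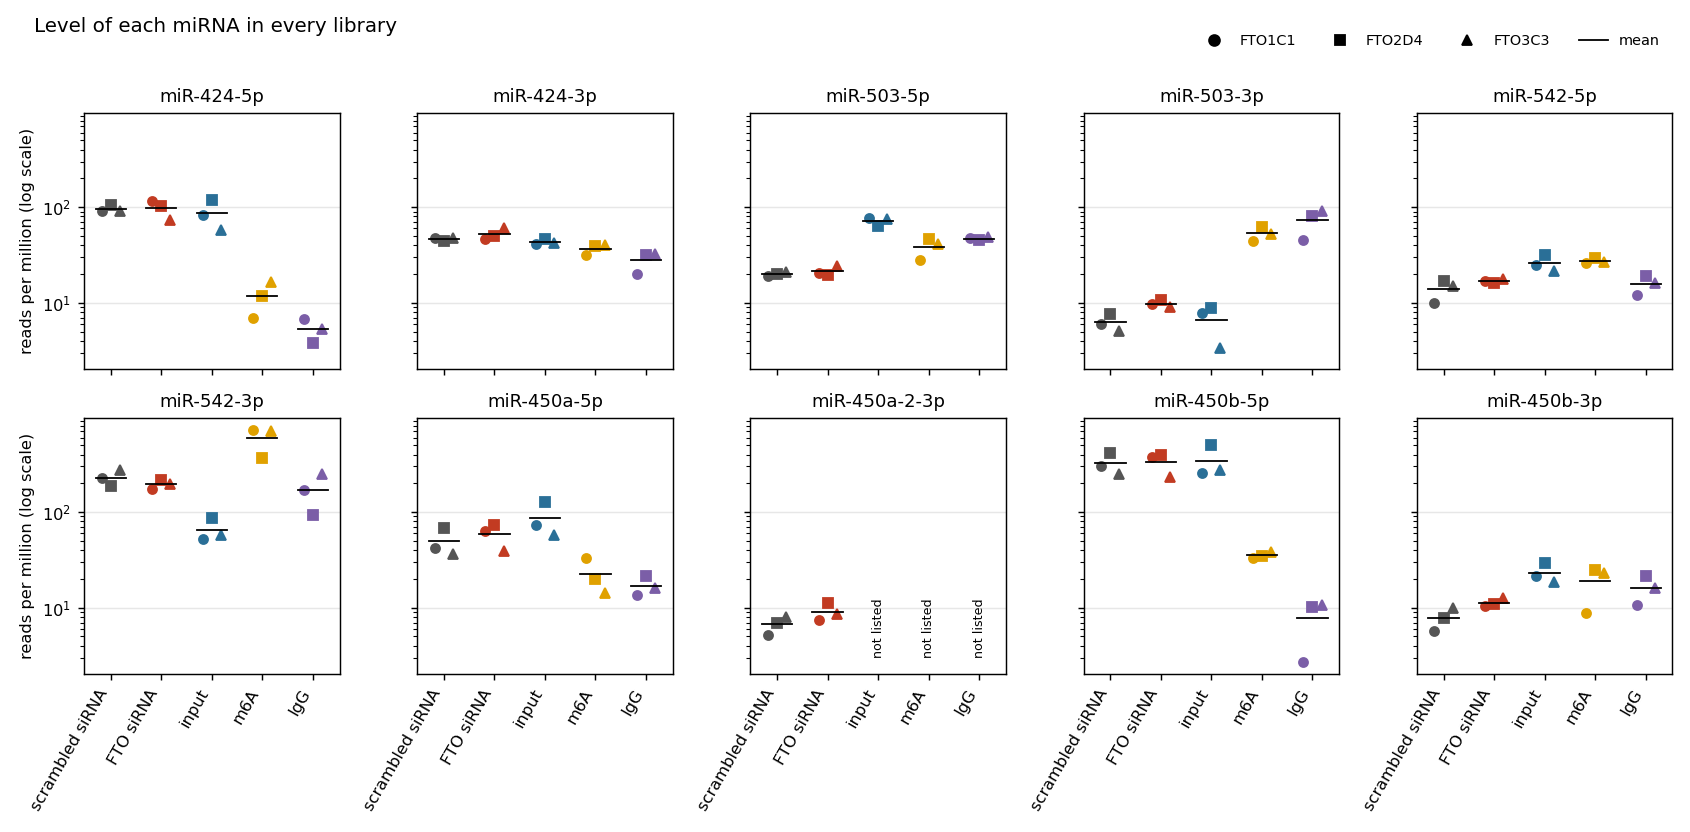
Reads per 1000000 miRNA reads (RPM, log scale) of the 10 members in the 5 groups, with 1 point per library, the symbol giving the cell line and the bar the mean of 3. miR-542-3p is highest in the m6A libraries (371 to 730 RPM) whereas miR-450b-5p falls from 258 to 502 RPM in the inputs to 2.70 to 10.7 RPM in IgG. miR-450a-2-3p is not listed in the precipitation table.

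In the inputs, from another experiment with no siRNA named, the cluster sum was 754 ± 226 RPM and miR-450b-5p was highest with 345 ± 137 RPM. The other members differed in order from the scrambled siRNA libraries. miR-542-3p held 51.8, 87.0 and 58.0 RPM, below its 3 values after scrambled siRNA. miR-503-5p held 77.4, 63.0 and 76.0 RPM, above all 3 of its values there. miR-542-5p (21.3 to 31.5 RPM) and miR-450b-3p (18.7 to 29.5 RPM) were also above their values there, and the other members overlapped. The share of all listed miRNAs that lie apart in this way was not computed. Treatment and library set differ together between these groups and cannot be told apart, so no test was made. Among the lines, FTO2D4 had the highest level of miR-450b-5p, miR-450a-5p, miR-424-5p, miR-542-5p and miR-503-3p both in the scrambled siRNA libraries and in the inputs. The other members listed in both did not have this order. After FTO siRNA, miR-424-5p was highest in FTO1C1 (116 RPM) and miR-542-5p in FTO3C3 (17.8 RPM). The share of all miRNAs highest in FTO2D4 was not computed.

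Whether FTO knockdown changes the level of these miRNAs was asked by comparing FTO siRNA with scrambled siRNA. None of the 10 members passed edgeR's quasi-likelihood test at an adjusted p under 0.05, whereas 4.97% of all 2374 miRNAs tested were called higher and 0.505% lower. EdgeR with TMM scaling also called 0 members, and 0.885% of all miRNAs higher and 1.43% lower. DESeq2 called 0 of the 5 members for which it gave an adjusted p, and 32 miRNAs higher and 57 lower in all. No adjusted p was given for miR-450a-2-3p, miR-450b-3p, miR-503-3p, miR-503-5p and miR-542-5p. With edgeR, 2 members, miR-503-3p and miR-450b-3p, had an unadjusted p under 0.05, against 26.2% of all miRNAs tested. The cluster sum after FTO siRNA was 844, 906 and 676 RPM in FTO1C1, FTO2D4 and FTO3C3 (808 ± 119 RPM). With scrambled siRNA it was 754, 885 and 759 RPM, so the ranges overlapped. The median log2 fold change was 0.21 over the members and 0.29 over all miRNAs tested, so a member without a shift against the other miRNAs lies near 0.29 on this scale.

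miR-424-5p counted 330, 262 and 182 reads with scrambled siRNA and 403, 358 and 288 reads with FTO siRNA, which is 90.7, 106 and 91.4 RPM against 116, 103 and 74.3 RPM. It was thus higher in FTO1C1 and lower in FTO2D4 and FTO3C3, with a log2 fold change of 0.01 (95% interval -0.42 to 0.44, edgeR adjusted p = 0.98). miR-503-5p, its relative by sequence, had a log2 fold change of 0.09 (-0.33 to 0.51). miR-16-5p, with the same seed as miR-424-5p, was lower in all 3 lines (log2 fold change -0.49, SE 0.12, edgeR adjusted p = 0.0484). This call was kept with TMM scaling (log2 fold change -0.78, edgeR adjusted p = 0.0326). It was lost without the replicate block (adjusted p = 0.228) and without FTO1C1 (0.21), FTO2D4 (0.138) or FTO3C3 (0.063). The log2 ratios of miR-424-5p exceeded those of miR-16-5p by 0.79, 0.54 and 0.15, a difference seen in all 3 lines with an exact sign permutation p of 0.25 (two-sided), the smallest that 3 pairs allow. Of the 6 such differences computed, none passes a correction. Those to miR-195-5p and miR-497-5p were also positive in all 3 lines (mean 0.54 and 0.11), that to miR-15b-5p in 2 (mean 0.39), and those to miR-15a-5p (0.10, -0.036 and -0.075) and miR-503-5p in 1.

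miR-542-3p was the only member with a negative log2 fold change, -0.21 (-0.61 to 0.19, edgeR adjusted p = 0.47). Under TMM scaling it was -0.50 (edgeR adjusted p = 0.147) and with DESeq2 -0.50 (adjusted p = 0.114), and under both it was the 1 member with an unadjusted p under 0.05, while 5 further members were negative. Its level was 226, 189 and 275 RPM with scrambled siRNA and 175, 218 and 199 RPM with FTO siRNA, lower in FTO1C1 and FTO3C3 and higher in FTO2D4, and the groups overlapped. The leading arm miR-450b-5p had 377, 393 and 230 RPM after FTO siRNA, with ratios within line of 1.25, 0.94 and 0.92. Its log2 fold change was 0.04 (-0.32 to 0.40).

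The rarest arms had the highest fold changes. miR-503-3p counted 22, 19 and 10 reads with scrambled siRNA and 34, 37 and 35 reads with FTO siRNA, or 6.05, 7.71 and 5.02 RPM against 9.77, 10.7 and 9.03 RPM. The groups did not overlap, and the log2 fold change was 0.65 (SE 0.25, edgeR adjusted p = 0.144). miR-450b-3p counted 21, 19 and 20 reads against 36, 38 and 49 reads and had a log2 fold change of 0.56 (SE 0.25, adjusted p = 0.186 by edgeR). With TMM scaling the log2 fold changes were 0.34 for miR-503-3p (edgeR adjusted p = 0.576) and 0.27 for miR-450b-3p (edgeR adjusted p = 0.652). These 2 of 10 members had all FTO siRNA libraries above all scrambled siRNA libraries, against 26.3% of all miRNAs listed. Higher in each of the 3 lines were 4 members, the other two being miR-450a-5p and miR-450a-2-3p, against 43.5% of all listed miRNAs.

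**Figure D2:**
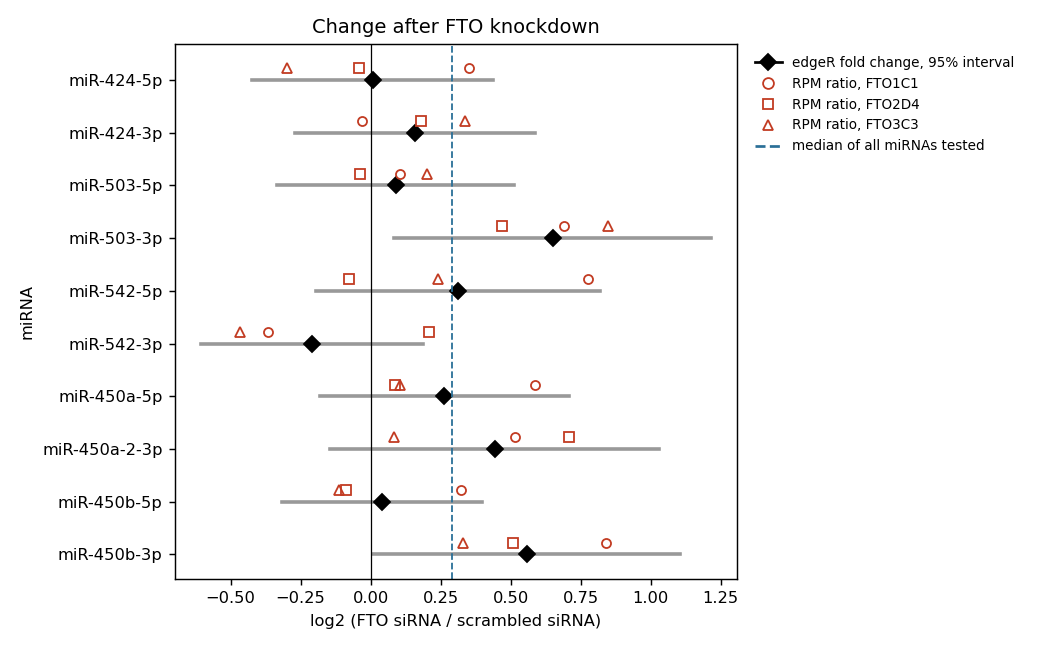
Log2 ratio of FTO siRNA to scrambled siRNA for the 10 members. Black diamonds and grey bars are the edgeR fold change and its 95% interval. Open symbols are the RPM ratio within each cell line, and the dashed line is the median of all miRNAs tested (0.29). No member passed the adjusted p. Only the intervals of miR-503-3p and miR-450b-3p leave out 0, and both hold the median of 0.29. Only that of miR-542-3p (-0.61 to 0.19) leaves out the median.

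Which members the m6A antibody retained was asked by comparing the m6A precipitate with the IgG precipitate and with the input. The 3 comparisons among these groups share libraries, so they are not independent of each other. In the precipitates the make-up of the cluster differed from the input. miR-542-3p rose from 8.74% of the cluster's reads in the input to 69.7% in m6A and was 44.0% in IgG. miR-450b-5p made up 44.9% of the cluster's reads in the input, 4.32% in m6A and 2.04% in IgG.

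Against IgG, miR-542-3p and miR-450b-5p were higher in the m6A libraries, which makes 2 of the 8 members tested. Of all 2054 miRNAs tested, 38.6% were called higher and 1.27% lower, and their median was 0.83 on the log2 scale. miR-542-3p counted 416, 505 and 3514 reads in m6A (730, 371 and 707 RPM) and 126, 74 and 47 reads in IgG (170, 94.1 and 252 RPM). All m6A libraries were above all IgG libraries, as for 45.9% of listed miRNAs, with ratios within line of 4.30, 3.94 and 2.80 and a log2 fold change of 1.86 (SE 0.28, edgeR adjusted p = 0.000936). It was the 1 member of 9 that met the rule for enriched miRNAs, at least 100 RPM in all m6A libraries and a mean ratio to IgG of at least 2, which 11.8% of all listed miRNAs met. Relative to the median of all miRNAs, its log2 fold change was 1.03.

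miR-450b-5p counted 19, 47 and 192 reads in m6A (33.4, 34.5 and 38.6 RPM) and 2, 8 and 2 reads in IgG (2.70, 10.2 and 10.7 RPM). The m6A libraries were again all above IgG, with a log2 fold change of 2.28 (SE 0.52, edgeR adjusted p = 0.00769). The ratio in FTO1C1 was 12.4 (exact 95% counting interval 2.98 to 110) and in FTO3C3 3.60 (0.98 to 29.9), since each rests on 2 IgG reads. With TMM scaling the log2 fold change was 1.49 (edgeR adjusted p = 0.0501) and with DESeq2 1.51 (adjusted p = 0.108), so the call for miR-450b-5p was lost there, whereas that for miR-542-3p was kept.

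The remaining members did not pass the test against IgG. Of these, miR-424-5p and miR-542-5p also had all m6A libraries above all IgG libraries. That makes 4 of 9 members, against 45.9% of all listed miRNAs. miR-542-5p had a log2 fold change of 0.81 (edgeR adjusted p = 0.155). miR-424-5p had 4, 16 and 82 reads in m6A and 5, 3 and 1 in IgG, too few for the filter on low counts. Its ratio was 1.04 in FTO1C1, 3.08 in FTO2D4 (0.88 to 16.5) and 3.07 in FTO3C3 (0.54 to 123), so a difference was not detectable at this depth. miR-503-3p had 43.9, 62.4 and 53.1 RPM in m6A and 45.9, 81.4 and 91.2 RPM in IgG, lower in all 3 lines, with a log2 fold change of -0.41 (-1.16 to 0.35). miR-503-5p was at -0.30 (-1.11 to 0.52). With TMM scaling, which moved the median of all miRNAs from 0.83 to 0.06, miR-503-3p (-1.16, edgeR adjusted p = 0.0218) and miR-503-5p (-1.05, edgeR adjusted p = 0.0403) were called lower, and the calls over all miRNAs were 22.1% higher and 14.7% lower.

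Against the input, 6 of the 9 members were called, 2 higher and 4 lower in m6A. Over all 2174 miRNAs tested, 66.8% were called higher and 10.5% lower, and the median log2 fold change was 1.65. The members higher in m6A were both 3p arms, miR-542-3p and miR-503-3p. miR-542-3p had 73, 127 and 87 reads in the inputs (51.8, 87.0 and 58.0 RPM), which gave ratios of 14.1, 4.26 and 12.2 and a log2 fold change of 3.17 (SE 0.45, edgeR adjusted p = 6.23e-07). miR-503-3p had 11, 13 and 5 reads in the inputs against 25, 85 and 264 reads in m6A, with a log2 fold change of 3.04 (SE 0.43, edgeR adjusted p = 5.32e-07). Both exceeded the median of all miRNAs, by 1.52 and 1.38.

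The members called lower in m6A than in the input were 5p arms. miR-450b-5p had 364, 733 and 410 reads in the inputs (258, 502 and 273 RPM) and 33.4 to 38.6 RPM in m6A, with ratios of 0.13, 0.069 and 0.14 and a log2 fold change of -3.21 (SE 0.43, edgeR adjusted p = 2.91e-07). miR-424-5p had 83.8, 120 and 58.0 RPM in the inputs against 7.02, 11.7 and 16.5 RPM in m6A and a log2 fold change of -2.77 (SE 0.46, edgeR adjusted p = 6.01e-06). For both, every m6A library was below every input. miR-450a-5p followed with -1.96 (SE 0.43, edgeR adjusted p = 0.000198), from 73.8, 126 and 57.3 RPM to 33.4, 19.8 and 14.3 RPM. miR-503-5p passed narrowly at -0.90 (SE 0.41, edgeR adjusted p = 0.0465), and its call was lost without any 1 of the cell lines and with totals that leave out miR-6080 and miR-10a-5p (adjusted p = 0.359). All 3 m6A libraries were below all 3 inputs for 5 of 9 members, miR-424-3p among them, against 11.1% of all listed miRNAs. They were above all 3 inputs for 2 members, against 67.9%. The members with RPM near equality were miR-542-5p (log2 fold change 0.10), miR-424-3p (-0.23) and miR-450b-3p (-0.26), none of which passed the test. Relative to the median of all miRNAs, these 3 arms were at -1.55, -1.88 and -1.91. With TMM scaling, which moved the median of all miRNAs to 0.10, the same miR-542-3p and miR-503-3p were called higher and the other 7 members lower, and the calls over all miRNAs were 26.4% higher and 28.2% lower.

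The IgG precipitate against the input shows what was recovered without the m6A antibody. There 5 of 9 members were called, 2 higher and 3 lower, while of all 1941 miRNAs tested 36.8% were called higher and 21.8% lower. The median over these 1941 miRNAs was 0.49 on the log2 scale. miR-503-3p, at 34, 64 and 17 IgG reads (45.9, 81.4 and 91.2 RPM) against 7.81, 8.91 and 3.33 RPM in the inputs, was higher by 3.37 on the log2 scale (SE 0.55, edgeR adjusted p = 4.94e-09). Its difference to the input was thus present with IgG alone. miR-542-3p was higher by 1.31 (SE 0.46, edgeR adjusted p = 0.00859), with ratios of 3.28 (FTO1C1) and 4.35 (FTO3C3) and near equality in FTO2D4. This call was lost without FTO1C1 (adjusted p = 0.207), without FTO3C3 (0.0974) and with TMM (0.0946) or DESeq2 (0.19) scaling. miR-450b-5p, miR-424-5p and miR-450a-5p were lower in IgG, with log2 fold changes of -5.67 (SE 0.59), -4.11 (SE 0.65) and -2.35 (SE 0.54) and edgeR adjusted p of 4.35e-20, 1.64e-09 and 5.39e-05. With TMM scaling, 1 member was called higher and 7 lower, against 28.8% and 30.2% of all miRNAs. These arms also had the lowest ratios of m6A to input, in a comparison that shares the input libraries.

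**Figure D3:**
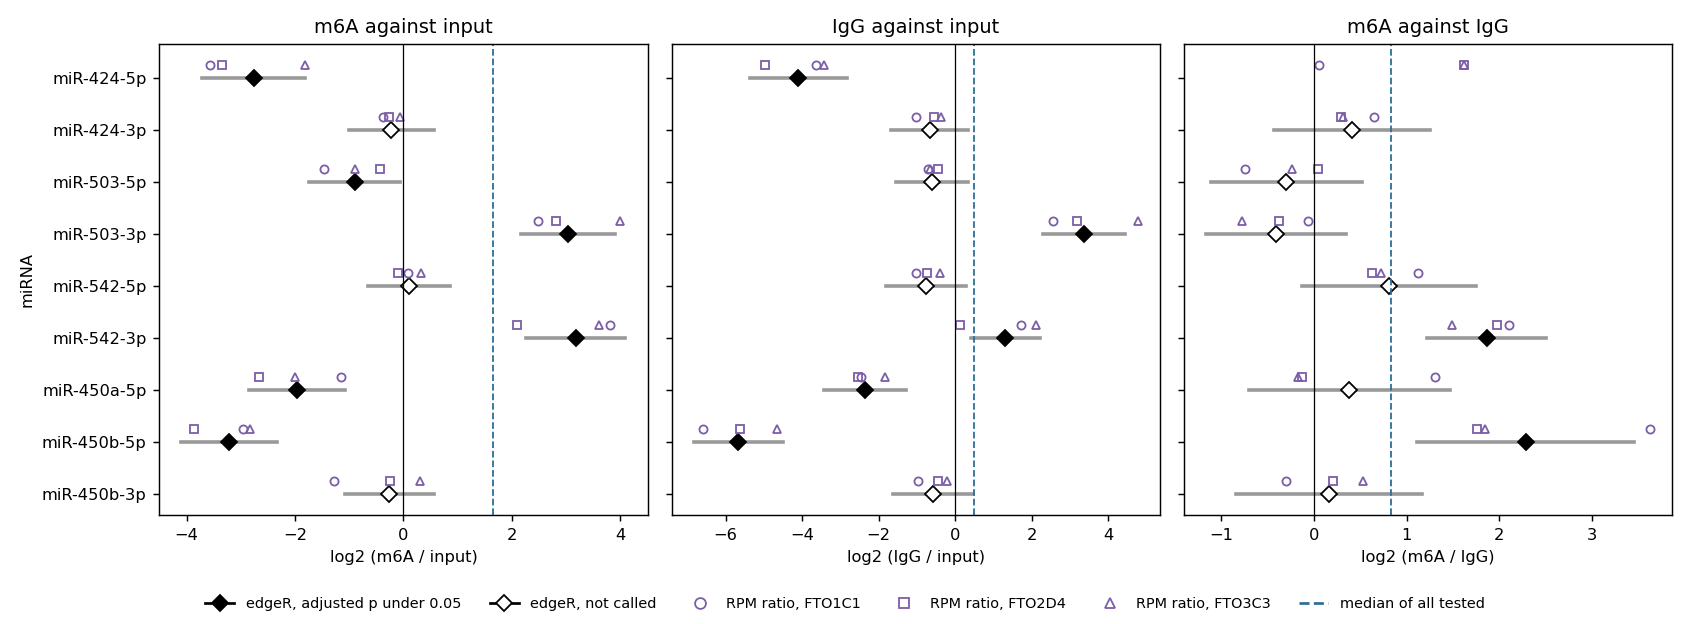
Log2 ratios of m6A to input, IgG to input and m6A to IgG for the 9 members in the precipitation table. Diamonds are the edgeR fold change with its 95% interval (filled where the adjusted p is under 0.05), open symbols the RPM ratio within each cell line, and dashed lines the median of all miRNAs tested (1.65, 0.49 and 0.83); miR-542-3p lies to the right of the median in all 3 panels, miR-503-3p in the first 2 only.

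**Figure D4:**
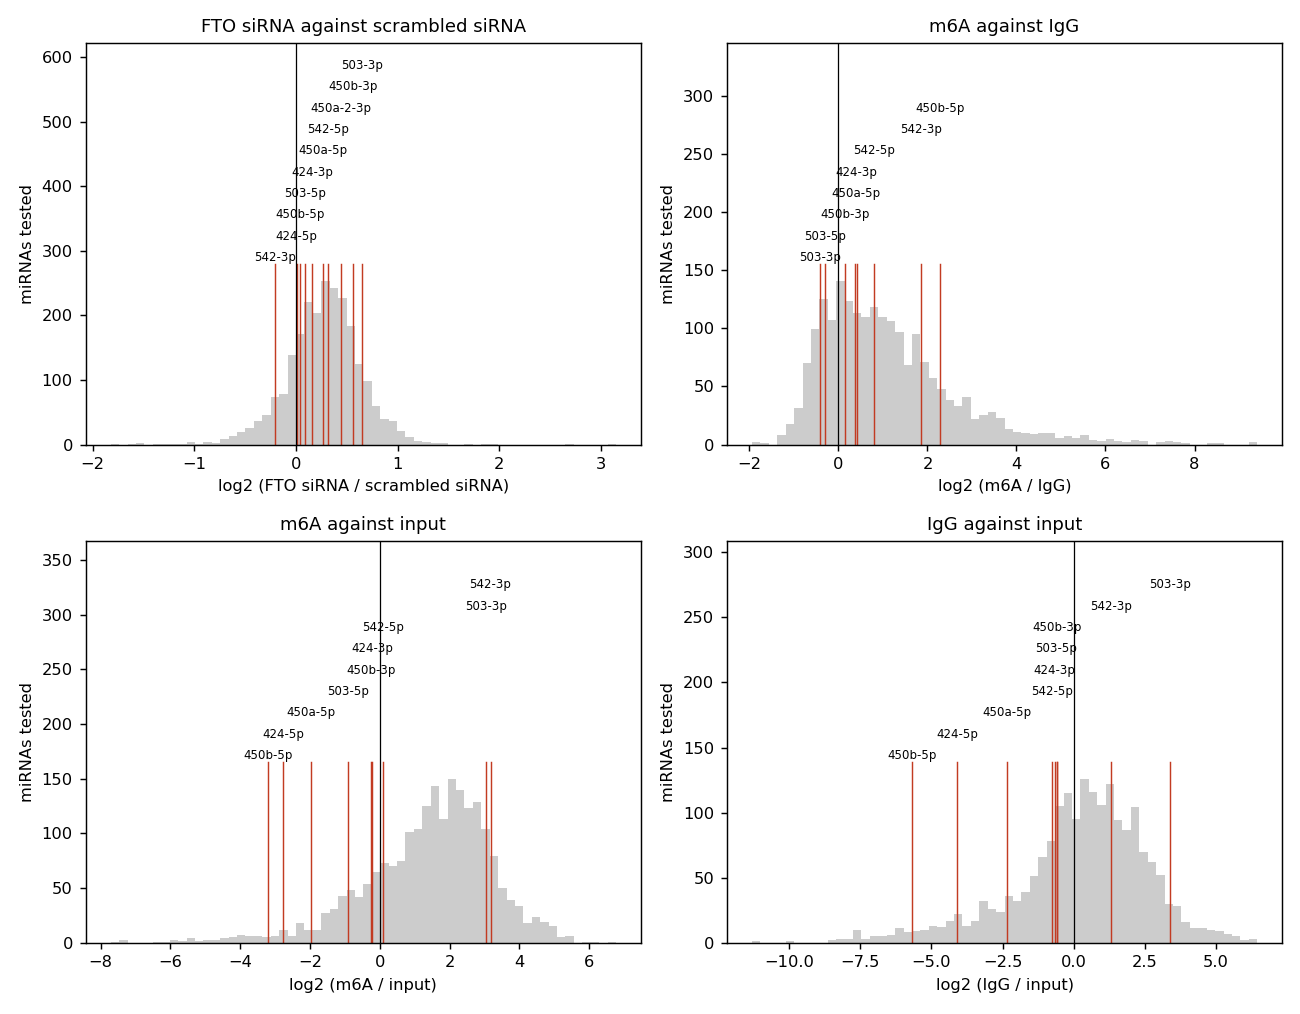
Distribution of the log2 fold change over all miRNAs tested (grey bars, number of miRNAs) in the 4 comparisons, with a red line at each member. After FTO siRNA the members lie within the bulk, whereas against the input miR-450b-5p, miR-424-5p and miR-450a-5p lie in the lower tail and miR-542-3p and miR-503-3p above the median.

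The share of 5p reads within a hairpin does not depend on the library total. In the inputs, 65.7 ± 7.11% of the miR-424 reads were from the 5p arm, against 23.5 ± 5.51% in m6A and 16.7 ± 7.43% in IgG. miR-503 went from 91.4 ± 4.12% to 41.8 ± 2.43% and 40.4 ± 8.93%. miR-542, whose 3p arm dominates, was at 28.6 ± 3.28% in the inputs, 4.81 ± 2.19% in m6A and 9.84 ± 6.08% in IgG. Its 5p share with scrambled siRNA, also unprecipitated but from the other experiment, was 5.89 ± 2.13%. That share overlapped both precipitates and lay below all inputs. miR-450b went from 93.5 ± 1.04% to 66.6 ± 11.1% and 30.7 ± 10.1%. In all 4 hairpins every m6A and every IgG library thus had a lower 5p share than every input. Of all hairpin names with both arms listed, 27.9% had this pattern for m6A and 30.1% for IgG, while 34.4% and 27.6% had the opposite one. Each of these 8 differences had an exact unpaired permutation p of 0.1 (two-sided), the smallest that 3 against 3 libraries allow. The adjusted p was 0.189 over the 17 arm comparisons. Between m6A and IgG, the 5p share of miR-450b alone did not overlap, at 79.2, 58.0 and 62.5% in m6A and no more than 40.0% in IgG, a pattern of 30% of hairpin names. Unlike for miR-542, the 5p shares of miR-424, miR-503 and miR-450b with scrambled siRNA lay above all m6A and IgG libraries.

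After FTO siRNA the arm shares stayed within the ranges of the scrambled siRNA libraries or overlapped them for all 5 hairpins. For miR-424 the 5p share was 67.2 ± 2.79% with scrambled siRNA and 64.5 ± 8.56% with FTO siRNA. For miR-503 it was 76.2 ± 4.37% and 68.3 ± 4.26%, lower in 3 of 3 lines. The exact permutation p of 0.2 (adjusted 0.34) compares 3 against 3 libraries without the pairing by line.

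**Figure D5:**
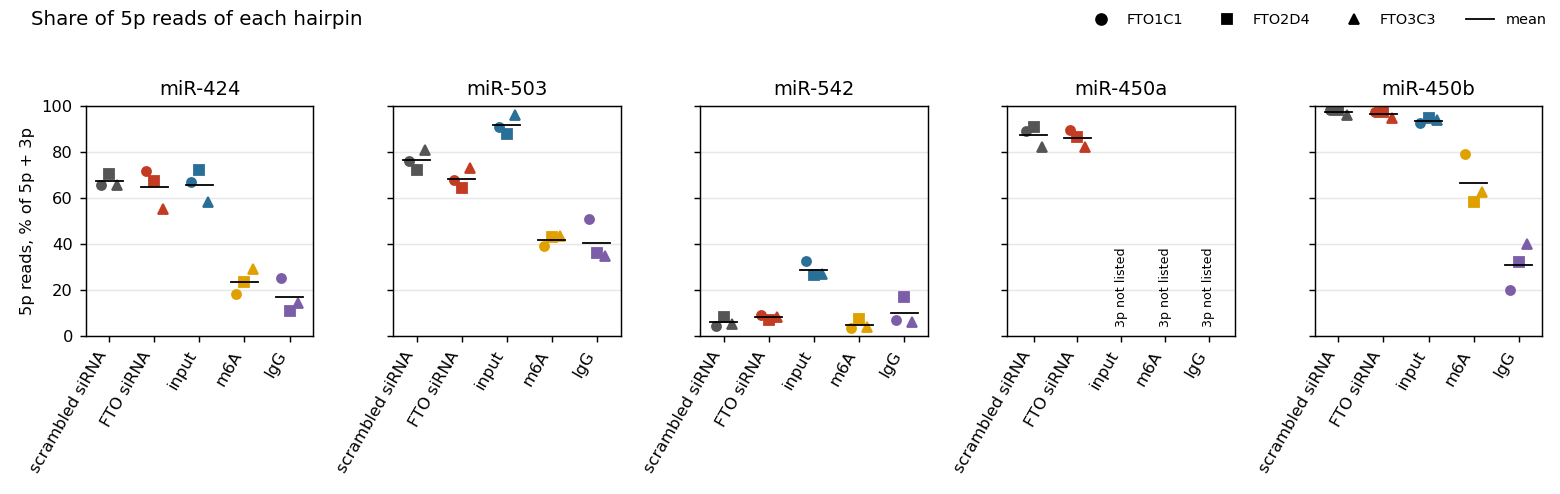
Reads of the 5p arm as a percentage of both arms of each hairpin, with 1 point per library (symbol by cell line) and the mean of 3 as a bar. The 5p share of miR-424, miR-503, miR-542 and miR-450b is lower in all m6A and IgG libraries than in all inputs; the 3p arm of miR-450a is not listed in the precipitation table.

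The seed relatives of miR-424-5p were set beside it. In m6A against the input, miR-15a-5p (-3.41), miR-15b-5p (-2.64) and miR-16-5p (-1.62) were called lower on the log2 scale, like miR-424-5p (-2.77), while miR-195-5p (0.31) and miR-497-5p (-0.33) did not pass. Against IgG, miR-15a-5p (3.28), miR-16-5p (4.56) and miR-195-5p (3.20) were called higher in m6A, as were 38.6% of all miRNAs tested, while miR-497-5p (-0.28) did not pass and miR-15b-5p was under the filter on low counts. Of the miR-106a-363 cluster, the other X-linked cluster looked up, none of 9 listed arms was called after FTO siRNA, and the log2 fold changes ran from -0.24 (miR-106a-5p) to 0.76 (miR-363-5p, edgeR adjusted p = 0.0519). miR-363-5p was called with totals that leave out miR-6080 and miR-10a-5p (adjusted p = 0.035), with no filter (0.0498) and without FTO3C3 (0.0306).

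The miRNAs whose pattern over the 15 libraries was most like that of miR-450b-5p, the member highest in scrambled siRNA, were found by the root mean square difference of log2(RPM + 1) after centring each miRNA. These were miR-374a-3p (0.44), miR-561-5p (0.53), miR-4267 (0.57), miR-4770 (0.57) and miR-148b-5p (0.60), where the median over 2182 miRNAs was 2.68. miR-424-5p was the nearest member, at place 19 with 0.77. For miR-542-3p, the member highest in m6A, the nearest were miR-891a-5p (0.36), miR-6765-5p (0.39), miR-520g-5p (0.40), miR-6830-5p (0.41) and miR-212-5p (0.42), with a median of 1.09. Its nearest member was miR-542-5p, at place 1181 with 1.15, farther than the median.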

How the data were processed

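Small RNA was sequenced from 15 libraries, 3 cell lines in each of 5 groups. Raw counts for each mature miRNA are what the authors deposited. Before counting, adapters were removed with cutadapt and inserts of 16 to 28 bp were matched to miRBase release 20, where a match needed exact stretches of 7 or more bases over 17 or more in all. A read that met this for several miRNAs went to the one sharing most bases with it. The version of cutadapt is not given in the sources used here. No miRNA is listed with a total under 22 reads (knockdown table) or under 82 (precipitation table).

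RPM were computed from total miRNA reads. Counts were tested over all miRNAs with the quasi-likelihood test of edgeR 4.0.16 in R 4.3.3. The total miRNA reads were the library sizes, filterByExpr used a minimum of 10 counts, the cell line was a block, and p-values were adjusted by Benjamini-Hochberg at 0.05. DESeq2 1.42.0, TMM factors, totals without miR-6080 and miR-10a-5p, no filter, other cutoffs, no block, 1 fit of all precipitation libraries and each cell line left out were alternatives. Scripts were tested on simulated data. Exact permutation tests used scipy 1.17.1 in Python 3.11.15, and figures matplotlib 3.10.9. Intervals of ratios cover counting error only. With the cell line as a block, edgeR p-values rest in part on how the group difference varied between the 3 clones. The other part is the dispersion pooled over all miRNAs. In IgG against input the 95% intervals had the width of a normal distribution. The p-values there rest almost wholly on the pooled dispersion, and those of m6A against input largely so, rather than on the spread between clones. The arm share tests were unpaired, so their p-values rest on the spread of libraries within groups.

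Libraries of 1 name come from the same clone, which pairs them. Deviations of paired libraries from their group means correlated at 0.12 to 0.19 in the knockdown and -0.078 to 0.060 in the other comparisons. All members were named. The miR-15/16 family, the miR-106a-363 cluster, the 5 nearest patterns and miR-6080 and miR-10a-5p, for their share of reads, were named besides. The members and lists were chosen with earlier results of these data known. The arm share tests, counting intervals and differences to seed relatives were added after the data were seen. Sequences and positions are from RefSeq (GRCh38.p14).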

Additional observations from a re-analysis of the deposited data

How the results depend on the processing

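The number of cluster miRNAs called was 0 for FTO siRNA, 2 for m6A against IgG, 6 for m6A against input and 5 for IgG against input, and without the replicate block, that is without pairing by cell line, it was the same in each comparison (0, 2, 6 and 5). With each cell line left out it was 0, 2, 5 and 4 to 5; without FTO1C1, FTO siRNA gave 0 calls over all 2363 miRNAs tested, and 126 and 201 without the others. TMM factors gave 0, 3, 9 and 8 in the same order, against 2.32, 36.8, 54.7 and 59.0% of all miRNAs tested. DESeq2 gave 0, 2, 9 and 6, against 3.68, 28.2, 49.1 and 44.9%. In m6A against IgG, TMM called 1 member higher and 2 lower, and DESeq2 1 higher and 1 lower. A cutoff of 15 RPM in place of 100 let 2 members (44.2% of all miRNAs) pass the enrichment rule, and 100 RPM in place of 15 left 2 (12.1%) expressed. After FTO siRNA, log2 fold changes turned negative with TMM and DESeq2 for miR-424-3p (-0.13 and -0.13), miR-424-5p (-0.28 and -0.29), miR-450a-5p (-0.033 and -0.034), miR-450b-5p (-0.25 and -0.25) and miR-503-5p (-0.20 and -0.20), since these scalings move the median of all miRNAs from 0.29 to 0.00. Leaving out single lines gave -0.17 to 0.16 for miR-424-5p and -0.10 to 0.12 for miR-450b-5p. In m6A against IgG, the values turned negative with TMM, with totals that leave out miR-6080 and miR-10a-5p, and with DESeq2 for miR-424-3p (-0.36, -0.091 and -0.39), miR-450a-5p (-0.40, -0.14 and -0.44; -0.14 to 0.82 with lines left out) and miR-450b-3p (-0.62, -0.37 and -0.66). In m6A against input, the same totals gave 0.19 for miR-424-3p and 0.13 for miR-450b-3p (-0.60 to 0.040 with lines left out), and miR-542-5p was -1.45 with TMM and -1.48 with DESeq2 (-0.021 to 0.21 with lines left out). In IgG against input, these totals gave 0.22 for miR-424-3p, 0.32 for miR-450b-3p, 0.28 for miR-503-5p and 0.13 for miR-542-5p. None of these members had been called in that comparison. The causes were not tested beyond the shift of scale. The depth of the IgG libraries, where 3 reads make 3.81 to 16.1 RPM, limits the ratios of miR-424-5p and miR-450b-5p.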
